A study of Homo sapiens with 24 samples.

Results

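The genes described here are 10 of the 58735 genes in the count table: FOS, FOSB, FOSL1, FOSL2, JUN, JUNB, JUND, EGR1, MAFF and IER3. They were chosen by name as AP-1 components and immediate early genes, and each name had 1 identifier. IER3 is an immediate early gene, but its product is a stress-response protein and not a transcription factor, so the group is named for the other genes. RNA was measured by poly(A) RNA sequencing in OE33 and SK-GT-4, 2 established cell lines of esophageal adenocarcinoma. For each line, a control that carried Cas9 alone (Cas9) and a line knocked out for the DNA sensor cGAS (cGAS KO) were treated for 48 hours with DMSO or with 500 nM of the MPS1 kinase inhibitor reversine (MPS1i), which causes chromosomes to missegregate. Each of the 8 groups had 3 libraries, labelled replicates 1 to 3, for 24 libraries in all. The labels name no batch. The replicate number is taken here as the batch, since the study paired its libraries by batch number. The controls and the knockouts were described as clones, so a difference between genotypes is also a difference between clones.

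AP-1 is a pair of basic leucine zipper proteins, usually a FOS family member with a JUN family member, that binds a short DNA site. FOS proteins must pair with a partner to bind DNA, whereas JUN proteins can also pair with each other. Growth factors, stress and cytokines switch the FOS, JUN and EGR1 genes on within minutes through the MAP kinases, and the RNAs are short-lived. In epithelial tumors the more stable members FOSL1, FOSL2, JUNB and JUND carry much of the steady AP-1 activity. EGR1 is a zinc finger factor of the same early wave. MAFF is a small MAF protein, a leucine zipper partner that lacks an activation domain of its own.

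The libraries held between 15561268 and 25284177 counts, with a median of 20443388.5. Levels are in CPM (each gene's count relative to the library total), scaled over all 24 libraries by the TMM method. A gene was called when the quasi-likelihood test of edgeR gave a p of 0.01 or less after Benjamini-Hochberg adjustment over all genes tested. The targeted gene CGAS ranged from 14.7 to 41.6 CPM in Cas9 cells and from 2.22 to 6.09 CPM in all knockout libraries but 1. The OE33 library labelled cGAS KO DMSO replicate 2 held 15.6 CPM of CGAS, between the other OE33 knockout libraries and the OE33 controls, which held at least 28.9 CPM. Where a call among the 10 genes changed without it, the value without it is given. Summed epithelial markers (EPCAM, KRT8, KRT18, KRT19 and CDH1) ranged from 16300 to 22500 CPM in OE33 and from 3680 to 19400 CPM in SK-GT-4. Leukocyte markers summed to at most 0.252 CPM. Endothelial markers summed to at most 0.362 CPM in OE33 and to between 5.4 and 19.2 CPM in SK-GT-4, and fibroblast markers to between 0.405 and 7.03 CPM and between 4.33 and 81.7 CPM. In SK-GT-4 the replicates spread more widely, with a biological coefficient of variation of 34% against 15% in OE33, and 2 of its libraries stood apart, replicate 1 of cGAS KO under DMSO and replicate 2 of Cas9 under MPS1i.

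The 10 genes differed widely in level, and the 2 lines ranked them differently. Per kilobase of transcript, the median over the 12 OE33 libraries was highest for IER3 (434 CPM per kb), followed by FOSL1 (166 CPM per kb), JUNB (98.8 CPM per kb), JUND (27.5 CPM per kb), EGR1 (22.9 CPM per kb), JUN (20.5 CPM per kb), FOSL2 (10.2 CPM per kb), MAFF (8.63 CPM per kb), FOS (2.00 CPM per kb) and FOSB (0.461 CPM per kb). The ranges of IER3, FOSL1, JUNB and JUND did not overlap one another in OE33, while each later pair of neighbours overlapped. In SK-GT-4 the order was JUNB (194 CPM per kb), FOSL1 (65.4 CPM per kb), JUND (47.4 CPM per kb), IER3 (43.9 CPM per kb), JUN (17.1 CPM per kb), FOSL2 (14.3 CPM per kb), MAFF (3.43 CPM per kb), EGR1 (2.30 CPM per kb), FOS (0.710 CPM per kb) and FOSB (0.193 CPM per kb). Every pair of neighbours overlapped there. Both lines thus carried FOSL1 and JUNB as their most abundant FOS and JUN family RNAs, and FOS and FOSB as the least abundant of the 10.

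**Figure D1:**
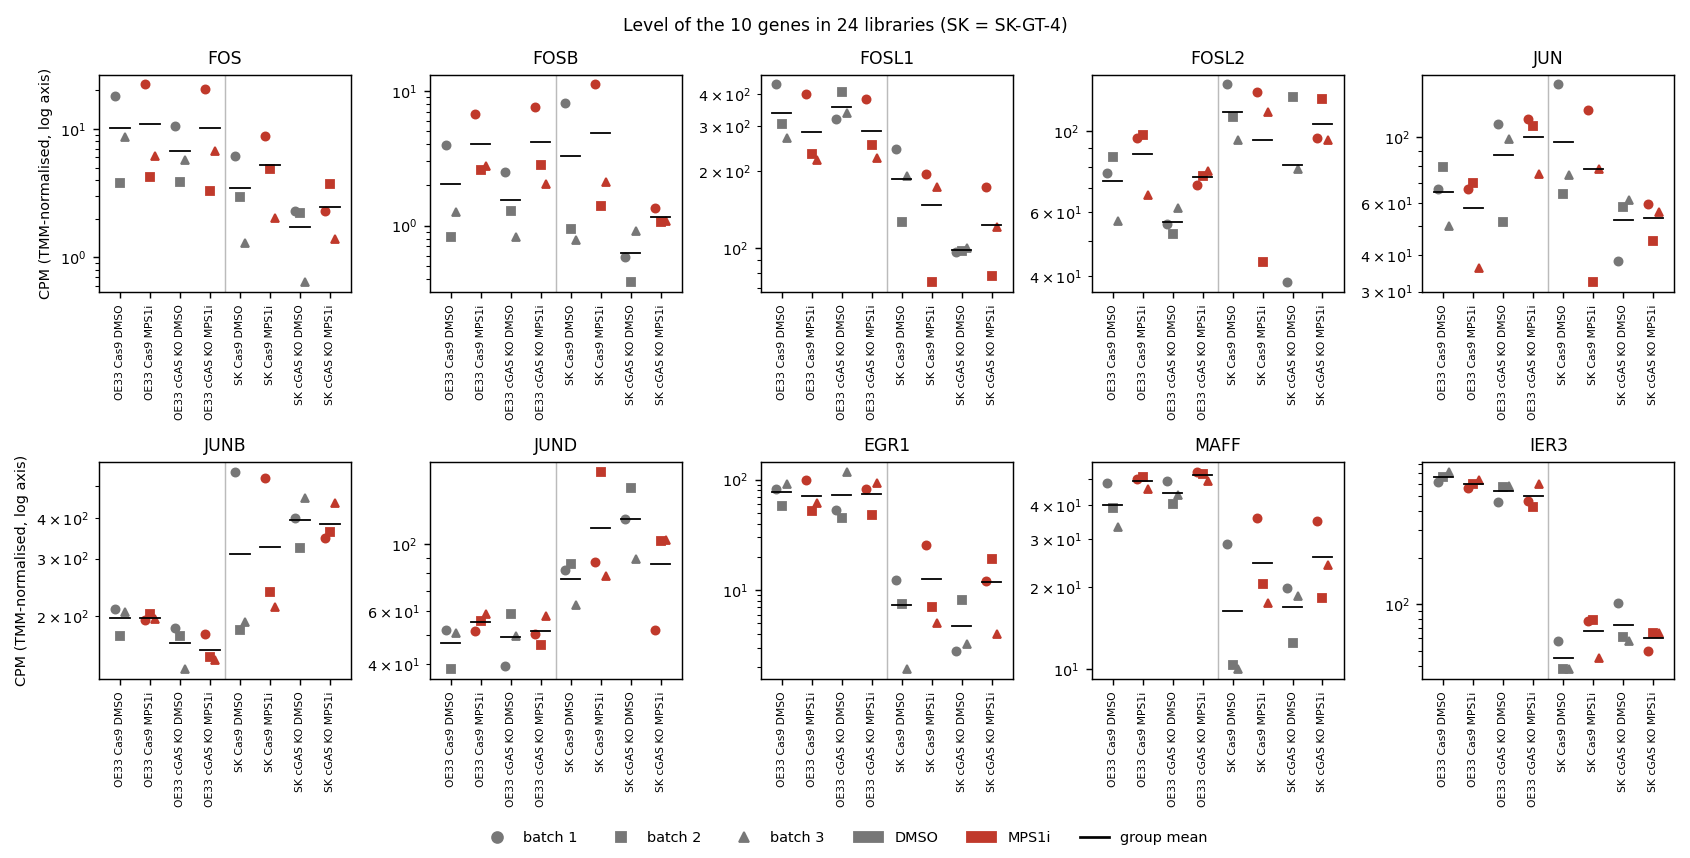
TMM-normalised level in CPM (log axis, its own range for each gene) of the 10 genes in each of the 24 libraries, by group. Symbols mark the batch, colours the treatment, and the bar is the mean of 3 libraries. EGR1 and IER3 are higher in OE33, to the left of the grey line, and batch 1 holds the highest FOS and FOSB values of OE33 and of SK-GT-4 Cas9.

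The promoters of the genes that the results below turn on are shown with the sites through which such genes are classically induced. RefSeq promoter sequences (GRCh38.p14, the same build as the counts) were matched for 8 of the 10 genes, MAFF with 2 starts, but not for FOSL1 and IER3. Within 250 bases upstream of the start, both strands were searched for the AP-1 site TGANTCA, the cAMP response element TGACGTCA, its core TGACG, the CArG box bound by serum response factor, and the EGR site GCGNGGGCG. The core TGACG is part of the full element. In the lines below, capitals mark every match and all other bases are in lower case, 5′ to 3′ on the gene's strand. FOSB and FOS are shown as the pair of lowest RNAs (chr19:45467746-45467994 and chr14:75278578-75278825, both plus strand), EGR1 as the gene with one of the largest differences between the lines (chr5:138465229-138465478, plus strand), and MAFF, as a gene that was higher after MPS1i in every pair, with only the 26 bases around its element (chr22:38201931-38201956, plus strand), since these lie in an exon of other MAFF transcripts.
FOSB: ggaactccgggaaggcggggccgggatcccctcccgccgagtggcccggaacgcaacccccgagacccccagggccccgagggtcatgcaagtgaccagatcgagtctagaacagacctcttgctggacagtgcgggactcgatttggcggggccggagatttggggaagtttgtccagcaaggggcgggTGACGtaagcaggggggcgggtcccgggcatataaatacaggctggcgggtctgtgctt
FOS: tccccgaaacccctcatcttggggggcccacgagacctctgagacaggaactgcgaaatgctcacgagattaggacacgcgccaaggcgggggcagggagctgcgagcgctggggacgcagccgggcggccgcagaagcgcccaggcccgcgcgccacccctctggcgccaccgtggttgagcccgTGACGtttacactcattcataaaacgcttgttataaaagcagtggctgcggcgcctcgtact
EGR1: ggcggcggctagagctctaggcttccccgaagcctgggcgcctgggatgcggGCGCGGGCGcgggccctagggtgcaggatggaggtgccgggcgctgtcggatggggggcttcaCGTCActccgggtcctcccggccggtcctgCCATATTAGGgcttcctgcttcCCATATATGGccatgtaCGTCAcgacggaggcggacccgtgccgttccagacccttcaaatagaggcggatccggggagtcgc
MAFF: ccgggtcggTGACGTCAccgcatgac
The core TGACG stood in 8 of the 9 promoters, against 21.2% of 35116 RefSeq promoters of this length. Each of the 8 matched genes held it, but the second MAFF start did not. The core lay at -60 to -56 from the RefSeq start in FOSB and at -64 to -60 in FOS. The FOS stretch shown reaches into the FOS gene of the count table's annotation, which starts at chr14:75278774. The full element TGACGTCA was found in JUND and MAFF and in 1.65% of all promoters. EGR1 alone of the 8 held CArG boxes in this window, at -105 to -96 and at -83 to -74, and 1.16% of all promoters held one. Sites further upstream were not searched, so a gene without a match here may hold one there. EGR1 also held the EGR site, at -198 to -190, as did 8.41% of all promoters. None of the 9 promoters held TGANTCA in this window, which 6.57% of all promoters did. These are matches of letters in the reference sequence, and binding was not measured.

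The largest differences were between the cell lines. In the Cas9 controls under DMSO, 3 of the 10 genes were called, EGR1, MAFF and IER3, all higher in OE33. Of all 25181 genes tested, 22% were called, with 9.63% higher and 12.4% lower in OE33. In the cGAS KO cells under DMSO, 6 of the 10 were called, against 21.6% of all genes: EGR1, MAFF, IER3 and FOSL1 were higher in OE33 (8.99% of all genes were) and JUNB and JUND lower (12.6% of all genes were). The median log2 difference of the 10 genes was 0.143 in Cas9 and 1.35 in cGAS KO, beside -0.138 and -0.153 over all genes tested. Since each line is a single cell line, the line cannot be told apart from anything else that differs between the 2 cultures, and in bulk RNA fewer expressing cells and less RNA per cell cannot be told apart.

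IER3, a stress and survival gene, stood at 614, 667 and 720 CPM in the 3 OE33 Cas9 DMSO libraries and at 57.7, 38.0 and 38.1 CPM in those of SK-GT-4. In the cGAS KO cells it stood at 457, 575 and 580 CPM in OE33 and at 102, 61.1 and 57.9 CPM in SK-GT-4. The groups were far apart in both genotypes. By edgeR's quasi-likelihood test the log2 difference was 3.90 ± 0.294 (SE, n = 3 libraries per group, adjusted p = 2.79e-10) in Cas9 and 2.87 ± 0.280 (adjusted p = 2.31e-08) in cGAS KO.

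EGR1 stood at 81.5, 58.3 and 90.6 CPM in OE33 Cas9 DMSO and at 12.4, 7.47 and 1.93 CPM in SK-GT-4 Cas9 DMSO. In the cGAS KO cells the values were 53.3, 45.3 and 118 CPM against 2.81, 8.07 and 3.28 CPM. Every OE33 library lay above every SK-GT-4 library, and the SK-GT-4 values varied more among themselves. The fitted log2 differences were 3.41 ± 0.659 (SE, edgeR, adjusted p = 0.000238) and 3.93 ± 0.678 (adjusted p = 7.31e-05). EGR1 and IER3 remained called in both genotypes under all 12 other settings tried, including the exclusion of each batch.

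MAFF stood at 48.0, 39.0 and 33.4 CPM in OE33 Cas9 DMSO, above 28.7, 10.4 and 10.03 CPM in SK-GT-4 Cas9 DMSO. In cGAS KO cells it stood at 49.1, 40.2 and 43.4 CPM against 19.8, 12.5 and 18.6 CPM. The log2 differences were 1.30 ± 0.339 (SE, edgeR, adjusted p = 0.00438) and 1.38 ± 0.340 (adjusted p = 0.00273). The call was lost without replicate 2 in both genotypes (adjusted p = 0.0775 and 0.0342) and without replicate 3 (adjusted p = 0.0951 and 0.0346).

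Of the 4 FOS family genes, FOSL1 was called between the lines, in the cGAS KO cells. FOSL1, which encodes the FOS protein FRA-1, stood at 321, 408 and 339 CPM in OE33 cGAS KO DMSO and at 96.8, 97.3 and 100.2 CPM in SK-GT-4 cGAS KO DMSO, with a log2 difference of 1.86 ± 0.356 (SE, edgeR, adjusted p = 0.000243), a call that was lost without replicate 3 (adjusted p = 0.0171). In the Cas9 controls the same difference was 0.85 ± 0.347 and was not called (adjusted p = 0.0657). FOS, the prototype of the family, had log2 differences of 1.55 ± 0.730 and 1.961 ± 0.760 that were not called (adjusted p = 0.113 and 0.0513). FOSB and FOSL2 were not called in either genotype. Whether the difference between lines depended on genotype was not tested for these genes.

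JUNB and JUND, of the JUN family, were lower in OE33 in the cGAS KO cells. JUNB stood at 184, 174 and 137 CPM in OE33 cGAS KO DMSO and at 401, 322 and 459 CPM in SK-GT-4 cGAS KO DMSO, a log2 difference of -1.26 ± 0.350 (SE, edgeR, adjusted p = 0.00742). JUND stood at 39.2, 58.8 and 49.4 CPM against 121, 153 and 89.0 CPM, a log2 difference of -1.30 ± 0.298 (adjusted p = 0.00143). The OE33 and SK-GT-4 libraries did not overlap for either gene. In the Cas9 controls the log2 differences were -0.65 ± 0.346 for JUNB and -0.71 ± 0.295 for JUND, neither called (adjusted p = 0.163 and 0.0704). The JUNB call was lost without replicate 2, without replicate 3, and without either doubted knockout library under DMSO, that of OE33 labelled replicate 2 (adjusted p = 0.0222) or that of SK-GT-4 labelled replicate 1 (adjusted p = 0.0117). The JUND call was lost without replicate 1 and without replicate 3 (adjusted p = 0.0217 and 0.013), and without replicate 3 only EGR1 and IER3 of the 10 remained called. JUN itself, the founding member, was not called between the lines and had fitted log2 differences of opposite sign, -0.57 ± 0.393 in Cas9 and 0.73 ± 0.394 in cGAS KO (edgeR, adjusted p = 0.296 and 0.168).

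**Figure D2:**
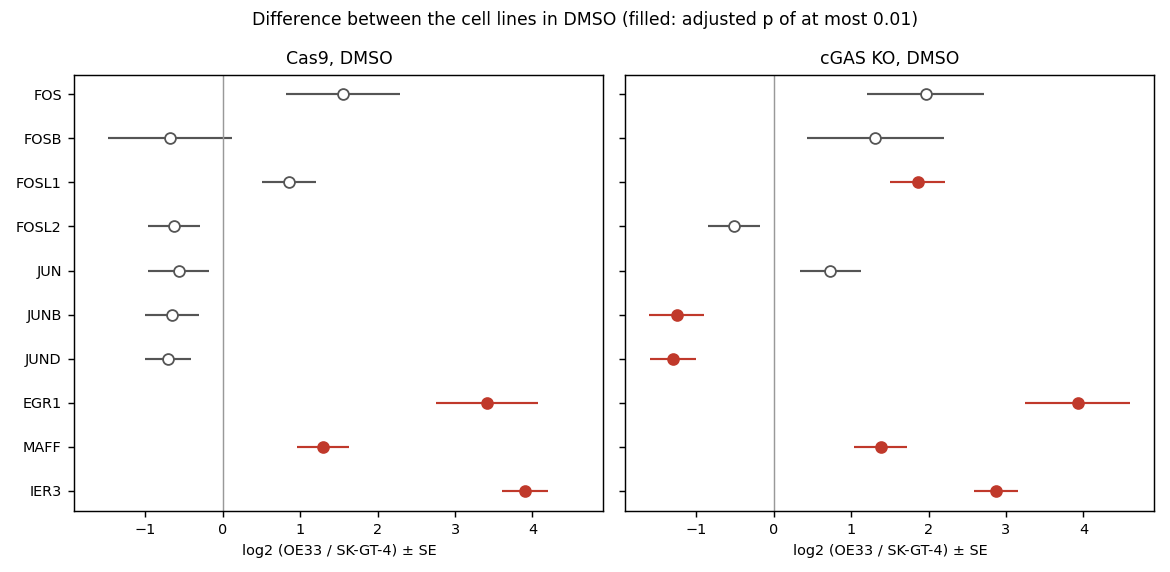
Fitted log2 difference between OE33 and SK-GT-4 under DMSO (x axis, points with SE bars, edgeR, 3 libraries per group) for the 10 genes in Cas9 (left) and cGAS KO cells (right). Filled points had an adjusted p of at most 0.01: 3 genes in Cas9, all to the right of 0, and 6 in cGAS KO, of which JUNB and JUND lie to the left.

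The other genes of the pathway are given by list, and the counts called in each list are to be read beside the 22% of all genes called in Cas9 cells and the 21.6% called in cGAS KO cells. Of 14 feedback regulators of the MAP kinases and of EGFR, which are themselves induced by the kinases they restrain, 7 were higher and 2 lower in OE33 Cas9 cells, with a list median log2 difference of 1.48. In the cGAS KO cells 10 were higher and 0 lower, with a median of 2.05. The ERK phosphatase gene DUSP6 had log2 differences of 1.88 ± 0.292 and 2.57 ± 0.300 (SE, edgeR, adjusted p = 1.71e-05 and 3.55e-07), DUSP5 of 2.61 ± 0.289 and 3.75 ± 0.304, and the EGFR inhibitor ERRFI1 of 2.23 ± 0.382 and 2.00 ± 0.380. DUSP1 and SPRY2 were lower in OE33 Cas9 cells, by log2 differences of -1.46 ± 0.391 and -1.60 ± 0.308.

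Of 12 ligands and receptors of the EGF family, which act upstream of this pathway, 7 were higher and 2 lower in OE33 Cas9 cells, and 3 were higher and 2 lower in OE33 cGAS KO cells. The receptor genes ERBB2 and ERBB3 were higher in OE33 by log2 4.23 ± 0.598 and 3.82 ± 0.409 in Cas9 cells (SE, edgeR, adjusted p = 4.61e-06 and 7.38e-08). The ligand gene EREG was higher by 1.54 ± 0.386, whereas NRG1, a ligand of ERBB3, was lower by log2 -6.77 ± 0.635, with at most 4 counts in an OE33 Cas9 library. Of 25 other immediate early genes tested, 5 were higher and 2 lower in OE33 Cas9 cells and 6 higher and 1 lower in OE33 cGAS KO cells, a share near that of all genes. ZFP36, whose product destabilises short-lived RNAs, was higher in both, by log2 2.46 ± 0.398 and 2.78 ± 0.402, while EGR3 was lower in OE33 Cas9 cells by -4.49 ± 0.859, with at most 5.87 CPM in any library.

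Among 13 other leucine zipper genes, 2 were higher and 1 lower in OE33 Cas9 cells and 4 were higher and 2 lower in OE33 cGAS KO cells, in Cas9 cells about the share of all genes. The small MAF gene MAFK was higher in OE33 like MAFF, by log2 2.34 ± 0.367 and 2.21 ± 0.366, and JDP2, whose product pairs with JUN proteins and represses, was lower by -1.65 ± 0.407 and -2.81 ± 0.419. Of 13 kinases and ETS factors upstream, 3 and 4 were higher in OE33 and 0 lower, in Cas9 cells again about the share of all genes, among them MAP2K1 by log2 1.28 ± 0.195 and 0.83 ± 0.193. Of 14 genes long known to carry AP-1 sites, 4 were higher and 2 lower in Cas9 cells and 4 higher and 5 lower in cGAS KO cells. The collagenase gene MMP1 was higher in OE33 by log2 3.51 ± 0.658 and 3.65 ± 0.652 in the same order. Of 5 heat shock genes, 2 were higher in OE33 Cas9 cells and 1 in OE33 cGAS KO cells. Of the 42 list genes called in the cGAS KO cells, 34 were still called without the OE33 library labelled replicate 2 and 29 without the SK-GT-4 library labelled replicate 1, both of cGAS KO under DMSO. Epithelial, endothelial and fibroblast marker levels differ between the lines too (above), and their part in these differences was not tested.

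The study's treatment question was whether inducing chromosome missegregation changed the transcriptome, and whether any change required cGAS. For the 10 genes, edgeR called 0 after MPS1i in each of the 4 backgrounds, against 0.0049% of all genes in OE33 Cas9 (1 of 20426 genes) and 0% in OE33 cGAS KO, SK-GT-4 Cas9 and SK-GT-4 cGAS KO. At an unadjusted p under 0.05 there were 2, 3, 1 and 0 of the 10 in the same order, and DESeq2 called 0 in each. Such a p was seen for 1420 and 1420 of all 20426 genes in OE33 and for 566 and 317 of all 22782 in SK-GT-4. Over all genes this edgeR test thus called next to nothing, and the directions within batches carry most of what can be described. By DESeq2 after a separate batch correction, the study reported genes raised by MPS1i in the Cas9 cells of both lines. The low count thus holds for the model used here.

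FOSB and MAFF were higher after MPS1i in all 12 pairs of libraries of the same line, genotype and batch. Of all 25181 genes tested, 0.373% were higher in all 12 pairs. FOSL2 was higher in all 3 batches of both OE33 genotypes, and FOS in all 3 batches of both SK-GT-4 genotypes. In OE33 Cas9, 3 of the 10 genes were higher in all 3 batches (18.8% of all genes were) and 2 lower (15.5% of all genes). In OE33 cGAS KO, 3 were higher (13.8%) and 0 lower (14.1%). In SK-GT-4 Cas9, 5 were higher (13.9%) and 1 lower (14.7%), and in SK-GT-4 cGAS KO, 4 were higher (12.2%) and 0 lower (11.7%).

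**Figure D3:**
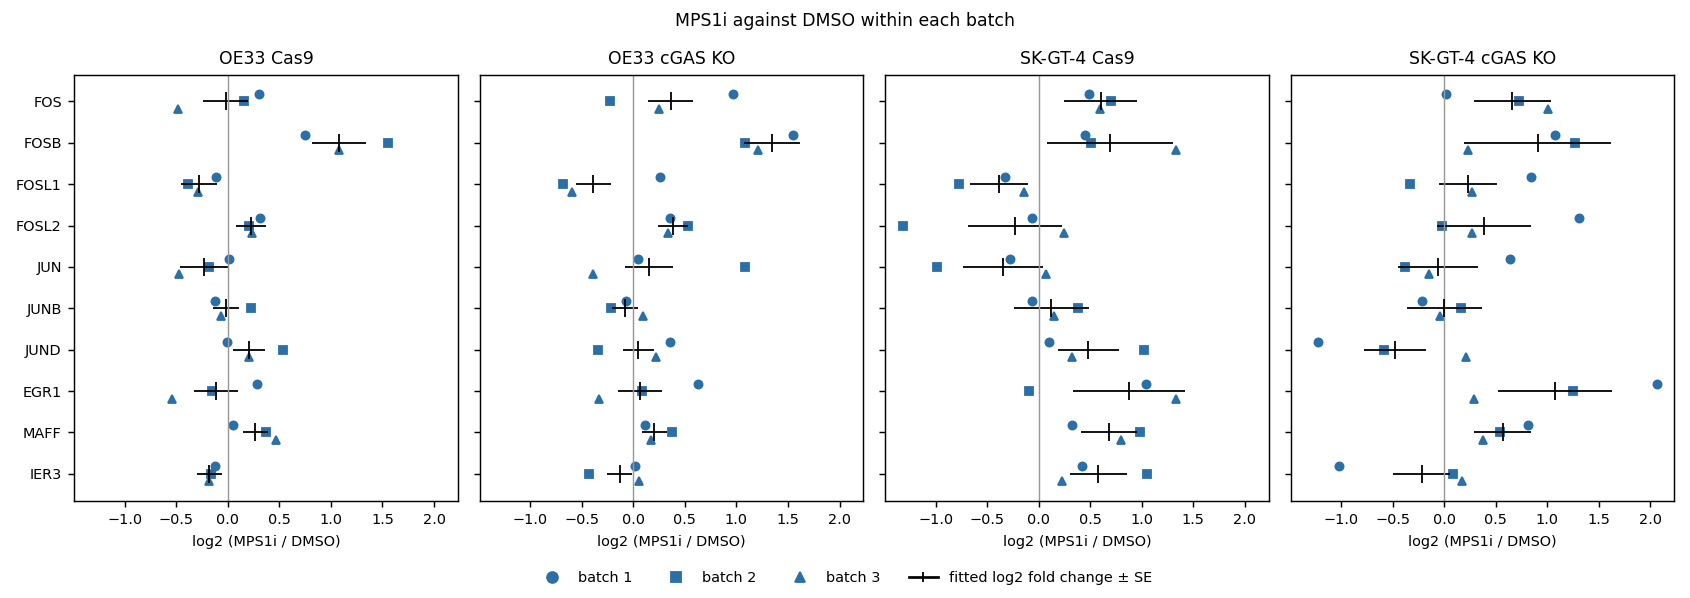
Log2 ratio of MPS1i to DMSO within each batch (x axis, symbols mark batches 1 to 3) for the 10 genes in the 4 combinations of line and genotype, with the fitted log2 fold change and its SE in black. All 12 FOSB and all 12 MAFF symbols lie to the right of 0, and the SE bars are wider in SK-GT-4.

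FOSB is the FOS family gene whose RNA was lowest, with between 8 and 259 counts per library. In OE33 Cas9 it stood at 3.98, 0.821 and 1.26 CPM in batches 1 to 3 under DMSO and at 6.77, 2.60 and 2.77 CPM after MPS1i. In OE33 cGAS KO it stood at 2.51, 1.28 and 0.826 CPM under DMSO and at 7.55, 2.82 and 2.04 CPM after MPS1i. Within each batch the MPS1i value was higher, although the groups overlapped because batch 1 was high under both treatments. The fitted log2 changes were 1.08 ± 0.266 (SE, edgeR, adjusted p = 0.343) and 1.35 ± 0.270 (adjusted p = 0.22). With a block for each genotype and batch, which pairs DMSO with MPS1i within a clone, they were 1.08 (adjusted p = 0.0143) and 1.36 (adjusted p = 0.00168), so the knockout change was called there. The number of all genes called with that block is not given. Without the OE33 library labelled cGAS KO DMSO replicate 2 the knockout change was log2 1.55 (adjusted p = 0.163).

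In SK-GT-4 Cas9, FOSB stood at 8.12, 0.945 and 0.780 CPM under DMSO and at 11.1, 1.39 and 2.11 CPM after MPS1i. In SK-GT-4 cGAS KO it stood at 0.585, 0.382 and 0.914 CPM under DMSO, with at most 17 counts, and at 1.34, 1.06 and 1.08 CPM after MPS1i. The log2 changes were 0.69 ± 0.612 (SE, edgeR, adjusted p = 0.981) and 0.90 ± 0.712 (adjusted p = 0.966). FOSB shares its locus with ERCC1, which lies on the opposite strand and had 43882 counts in all against 1371 for FOSB, and the strand setting of the counting is not given in the sources used here. ERCC1 changed by log2 -0.30, -0.16, 0.35 and -0.39 in the 4 backgrounds, so it was lower after MPS1i in 3 of them, with none called.

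Averaged over both genotypes of OE33, a comparison added after the data were seen, FOSB was higher by log2 1.21 ± 0.190 (SE, edgeR, adjusted p = 0.0178). This missed the threshold of 0.01, and 0 of the 10 genes were called, against 0.0294% of all genes (6 genes). DESeq2 called it (log2 1.22, adjusted p = 4.26e-05), as did edgeR without the OE33 library labelled cGAS KO DMSO replicate 2 (log2 1.31, adjusted p = 0.00349) and with the block for each genotype and batch, where FOSL2 was called as well (log2 0.31, adjusted p = 0.00473). Without any replicate block its adjusted p was 0.922. The share of all genes called under these other settings is not given. Averaged in the same way over SK-GT-4, FOSB changed by log2 0.80 ± 0.468 (adjusted p = 1), with 0 of the 10 called by edgeR or by DESeq2, against 0% of all genes. An unadjusted p under 0.05 was seen in these averages for 4 of the 10 in OE33 cells and for 3 in SK-GT-4 cells. Among all genes tested, 2497 of 20426 in OE33 and 498 of 22782 in SK-GT-4 had such a p.

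MAFF changed less but more evenly. It stood at 48.0, 39.0 and 33.4 CPM under DMSO and at 49.9, 50.6 and 46.0 CPM after MPS1i in OE33 Cas9. In SK-GT-4 Cas9 it stood at 28.7, 10.4 and 10.03 CPM under DMSO and at 35.8, 20.6 and 17.5 CPM after MPS1i. The log2 changes were 0.27 ± 0.119 in OE33 Cas9, 0.21 ± 0.118 in OE33 cGAS KO, 0.68 ± 0.272 in SK-GT-4 Cas9 and 0.57 ± 0.272 in SK-GT-4 cGAS KO (SE, edgeR, adjusted p between 0.695 and 0.981). Averaged over all 4 backgrounds, also added after the data were seen, MAFF was higher by log2 0.44 ± 0.107 (SE, edgeR, adjusted p = 0.21) and FOSB by 1.02 ± 0.258 (adjusted p = 0.233). Of the 10 genes, 0 were called in this average by edgeR, against 0.0119% of all genes (3 genes), and 4 had an unadjusted p under 0.05. Over all 25181 genes tested, 1516 had such a p. DESeq2 called MAFF there, at log2 0.44 and an adjusted p of 0.00572. How many of all genes DESeq2 called in this average is not given.

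FOS stood at 17.9, 3.79 and 8.68 CPM under DMSO and at 22.1, 4.23 and 6.19 CPM after MPS1i in OE33 Cas9. In SK-GT-4 Cas9 it stood at 6.18, 2.96 and 1.30 CPM under DMSO and at 8.73, 4.85 and 2.01 CPM after MPS1i, and in SK-GT-4 cGAS KO at 2.28, 2.20 and 0.645 CPM under DMSO and at 2.31, 3.70 and 1.40 CPM after MPS1i. The spread between batches was thus wider than the change within them. The log2 change was -0.02 ± 0.217 in OE33 Cas9, 0.36 ± 0.221 in OE33 cGAS KO, 0.60 ± 0.351 in SK-GT-4 Cas9 and 0.66 ± 0.371 in SK-GT-4 cGAS KO, with none called. EGR1 had the largest fitted changes of the 10 in SK-GT-4, log2 0.87 ± 0.541 in Cas9 and 1.08 ± 0.551 in cGAS KO (SE, edgeR, adjusted p = 0.981 and 0.966). In OE33 its changes were -0.12 ± 0.214 and 0.06 ± 0.214.

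FOSL1 was lower after MPS1i in all 3 batches of both Cas9 backgrounds, by log2 -0.28 ± 0.170 for OE33 and -0.39 ± 0.280 for SK-GT-4. It changed by -0.39 ± 0.170 in OE33 cGAS KO and 0.23 ± 0.282 in SK-GT-4 cGAS KO. FOSL2 changed by 0.23 ± 0.146 in OE33 Cas9 and by 0.39 ± 0.147 in OE33 cGAS KO. None of these was called (adjusted p between 0.623 and 0.981). JUN, JUNB and JUND had changes between log2 -0.48 and 0.48 over the 4 backgrounds.

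The genotype question was put to the treatment effect directly. The difference in MPS1i effect between Cas9 and cGAS KO was called for none of the 10 genes (0 in either line), against 0% of all genes in each. An unadjusted p under 0.05 was seen for 0 and 1 of the 10, and for 383 of all 20426 genes in OE33 and 550 of all 22782 in SK-GT-4. DESeq2 called 0 in each. The largest in OE33 was for FOS, log2 -0.38 ± 0.309 (95% interval -0.989 to 0.224), and that for FOSB was -0.27 ± 0.379 (-1.01 to 0.477), so the interval leaves room for changes of either sign. In SK-GT-4 JUND had the largest, log2 0.96 ± 0.419 (SE, edgeR, adjusted p = 0.823), with changes of 0.48 in Cas9 and -0.48 in cGAS KO. The difference in MPS1i effect between the lines was likewise called for 0 of the 10 in Cas9 and 0 in cGAS KO, against 0% of all genes in each, with 1 and 0 of the 10 at an unadjusted p under 0.05 and 0 called by DESeq2. Among all 25181 genes tested, 435 in Cas9 and 490 in cGAS KO had such a p. The intervals were wide, as in EGR1 in cGAS KO cells, -1.02 ± 0.609 (-2.21 to 0.176).

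Of the other genes of the pathway, none of the 7 lists had a member called after MPS1i in any of the 4 backgrounds or in any difference between backgrounds. In the average over all 4 backgrounds, 17 of 25 other immediate early genes and 10 of 13 other leucine zipper genes had a fitted change above 0, with median log2 changes of 0.164 and 0.151 beside 0.0277 over all genes tested, of which 54.7% were above 0. The feedback regulators (7 of 14 above 0, median 0.0111) and the heat shock genes (3 of 5, median 0.0389) had medians near that of all genes, as did the genes known for AP-1 sites (8 of 14, median 0.0227). The EGF family had 8 of 12 above 0 (median 0.0921), and the kinases and ETS factors 3 of 13 (median -0.0515).

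The comparison of cGAS KO with Cas9 called 0 of the 10 genes in each of its 4 settings. Of all genes, 1.47% were called in OE33 under DMSO, 2.84% in OE33 under MPS1i, 1.76% in SK-GT-4 under DMSO and 1.41% in SK-GT-4 under MPS1i. At an unadjusted p under 0.05 there were 4, 3, 4 and 2 of the 10 in that order, and DESeq2 called 0 in each. Of all genes tested, 3569 and 4347 of 20426 in OE33 and 3978 and 4203 of 22782 in SK-GT-4 had such a p. JUN in OE33 under MPS1i came closest to the threshold, and whether it was called depended on the setting.

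JUN stood at 66.6, 79.3 and 49.99 CPM in OE33 Cas9 DMSO and at 111, 51.8 and 98.6 CPM in OE33 cGAS KO DMSO, where the low value of 51.8 CPM is that of the library labelled replicate 2, with its high CGAS. After MPS1i it stood at 67.0, 70.1 and 36.1 CPM in Cas9 and at 115, 109.5 and 75.2 CPM in cGAS KO. The genotypes overlapped under DMSO and did not overlap under MPS1i. The log2 difference was 0.41 ± 0.233 (SE, edgeR, adjusted p = 0.394) under DMSO and 0.79 ± 0.232 (adjusted p = 0.0446) under MPS1i. Without the OE33 library labelled cGAS KO DMSO replicate 2, the log2 difference was 0.81 under DMSO (adjusted p = 0.00103) and 0.79 under MPS1i (adjusted p = 0.000334), and JUN was called in both. Under MPS1i JUN was also called with every library kept but no filter beyond a count above 0 (log2 0.80, adjusted p = 3.8e-07). For these other settings the number of all genes called is not given. Without any replicate block the adjusted p was 0.778 and 0.33. In SK-GT-4 JUN had the opposite sign, -0.73 ± 0.396 under DMSO and -0.44 ± 0.392 under MPS1i, not called (adjusted p = 0.386 and 0.574), and the difference between the lines in this contrast was not tested.

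In SK-GT-4 none of the FOS family genes was called between the genotypes. FOSB had log2 differences of -1.68 ± 0.712 under DMSO and -1.47 ± 0.661 under MPS1i (SE, edgeR, adjusted p = 0.246 and 0.264), FOS of -0.98 ± 0.368 and -0.92 ± 0.361 (adjusted p = 0.184 and 0.2), and FOSL1 of -0.85 ± 0.282 and -0.23 ± 0.280 (adjusted p = 0.131 and 0.694). FOSL2 had -0.51 ± 0.461 under DMSO and 0.11 ± 0.459 under MPS1i (adjusted p = 0.628 and 0.93). The FOSB difference leaned on batch 1, where Cas9 stood at 8.12 and 11.1 CPM and cGAS KO at 0.585 and 1.34 CPM, and it ranged from -2.68 to -0.47 under DMSO over the other settings. Summed epithelial markers moved with genotype in the same libraries, from 3680 to 8640 CPM in the 6 SK-GT-4 Cas9 libraries and from 9020 to 19400 CPM in the 6 cGAS KO libraries. Their part in these differences was not tested. In OE33, IER3 and JUNB had log2 differences of -0.34 ± 0.121 and -0.29 ± 0.124 under DMSO and of -0.30 ± 0.121 and -0.35 ± 0.124 under MPS1i, none called (adjusted p between 0.096 and 0.23).

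**Figure D4:**
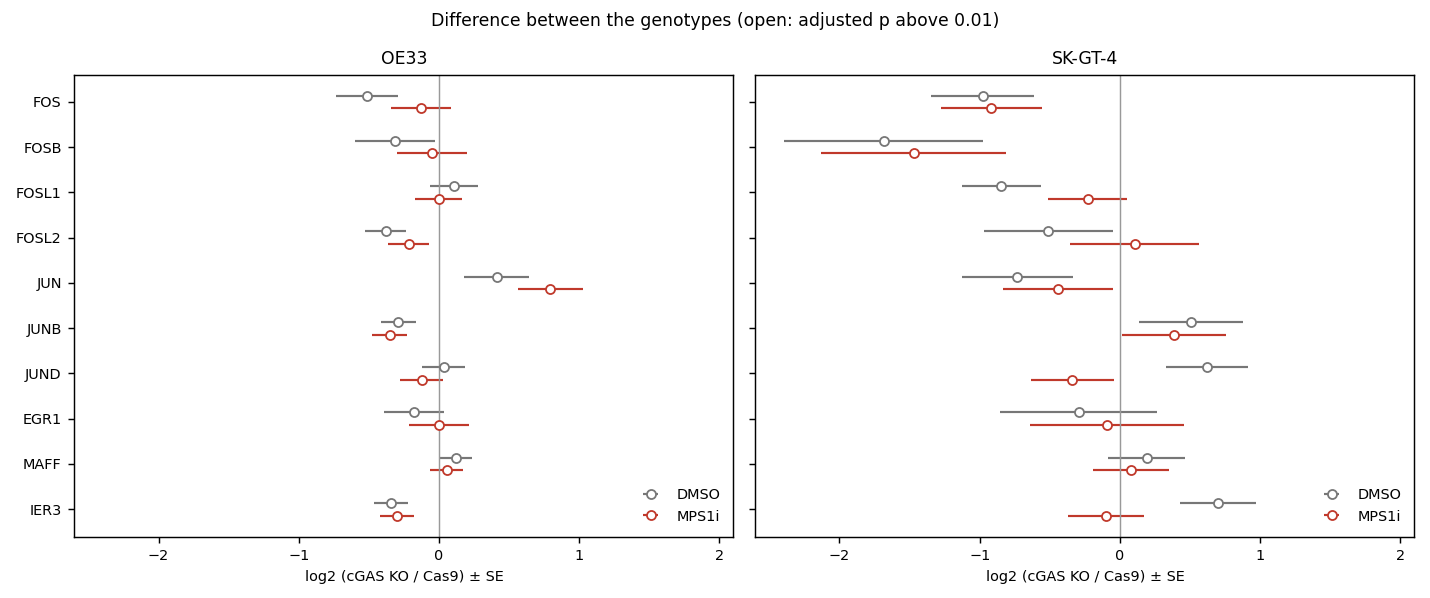
Fitted log2 difference of cGAS KO from Cas9 (x axis, points with SE bars, edgeR, 3 libraries per group) for the 10 genes in OE33 (left) and SK-GT-4 (right), under DMSO (grey) and MPS1i (red). All points are open, since none had an adjusted p of at most 0.01. JUN lies to the right of 0 in OE33 and to the left in SK-GT-4, and FOSB and FOS lie to the left in SK-GT-4.

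Some other genes of the lists were called between the genotypes, to be read beside the 1.47% to 2.84% of all genes called in these 4 comparisons. Of the genes long known to carry AP-1 sites, 2 of 13 tested were higher in the OE33 knockout under each treatment and 2 of 14 in the SK-GT-4 knockout under each treatment, with 0 lower. MMP1, a collagenase whose promoter is a classic AP-1 target, was among them in all 4. It stood at 31.97, 27.3 and 84.2 CPM in OE33 Cas9 DMSO and at 406, 188 and 723 CPM in OE33 cGAS KO DMSO. In SK-GT-4 it stood at 3.52, 3.61 and 5.42 CPM in Cas9 DMSO and at 12.2, 21.8 and 70.7 CPM in cGAS KO DMSO. The knockout libraries all lay above the controls, and the lowest OE33 knockout value was that of the library labelled replicate 2. The log2 differences were 3.18 ± 0.211 and 3.09 ± 0.210 in OE33 under DMSO and MPS1i (SE, edgeR, adjusted p = 2.61e-07 and 3.48e-07) and 2.73 ± 0.391 and 2.54 ± 0.383 in SK-GT-4 (adjusted p = 0.00296 and 0.00423).

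Of the 25 other immediate early genes tested, PPP1R15A, a stress-induced phosphatase subunit, was higher in the OE33 knockout by log2 0.76 ± 0.120 under DMSO and 0.69 ± 0.120 under MPS1i (SE, edgeR, adjusted p = 0.00196 and 0.0024). MYC was lower there by -0.73 ± 0.146 and -0.71 ± 0.146 (adjusted p = 0.0089 and 0.00724). Of the 14 feedback regulators, ERRFI1 was lower by -1.08 ± 0.170 and -1.10 ± 0.170 in OE33. In SK-GT-4 1 immediate early gene, EGR2, was lower in the knockout under DMSO (edgeR, adjusted p = 0.00737), with 66, 18 and 14 counts in the Cas9 libraries and 0, 1 and 1 in the knockout libraries. There 1 feedback regulator, SPRY1, was lower by log2 -1.90 ± 0.308. ERBB3 and BTC, a receptor and a ligand of the EGF family, were higher in the SK-GT-4 knockout under both treatments, by log2 2.03 ± 0.275 and 1.985 ± 0.279 under DMSO. NRG1 was higher in the OE33 knockout under MPS1i, by 3.97 ± 0.807, with at most 2 counts in a Cas9 library. Among the heat shock genes HSPB1 was lower in the OE33 knockout under both treatments, by -0.68 ± 0.116 and -0.63 ± 0.115. Of the leucine zipper genes and of the upstream kinases and ETS factors, 0 were called in any of these 4 comparisons. Without the OE33 library labelled cGAS KO DMSO replicate 2, all list genes called in OE33 were still called (6 under DMSO and 7 under MPS1i), with MMP1 at log2 3.43 and MYC at -0.96 under DMSO. In SK-GT-4 1 of 6 calls under DMSO, EGR2, was lost without replicate 1 of the knockout under DMSO (adjusted p = 0.0168).

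The genes whose levels ran most closely with 4 of the members over the 12 libraries of each line were sought among 11719 genes with a mean of at least 1 CPM in both lines, by the mean of the lines' correlation coefficients. These coefficients describe libraries that share clones, treatments and batches, and no test was made. For JUN they were SEPT10, NUAK1 and HIF1A (mean r between 0.869 and 0.889), for FOSL1 AEN, CEP55 and KNSTRN (between 0.802 and 0.879), for EGR1 CCDC14, CCNL1 and PER1 (between 0.772 and 0.839) and for FOS TNFRSF9, SRSF6 and TIMM23B (between 0.699 and 0.757). None of the 12 is an AP-1 gene.

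The loci and their overlaps bear on how far each count can be read. FOS lies at chr14:75278774-75282230, FOSL1 at chr11:65892049-65900573, JUN at chr1:58780788-58784327, JUND at chr19:18279760-18281622 and EGR1 at chr5:138465490-138469315, and in the table's annotation no other gene overlaps them. FOSB, at chr19:45467995-45475179, overlaps ERCC1 as described. JUNB, at chr19:12791496-12793315, overlaps HOOK2 on the opposite strand, which had 10948 counts in all against 132307 for JUNB. MAFF, at chr22:38200767-38216511, overlaps PLA2G6, which had 749 counts against 16476 for MAFF. FOSL2, at chr2:28392448-28417312, overlaps 2 genes with 165 counts in all, and IER3, at chr6:30743199-30744554, overlaps an antisense gene with 12 counts. FOSB is thus the only one of the 10 whose overlapping neighbour had more counts than itself.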

How the data were processed

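Poly(A) RNA of 24 libraries was sequenced, and per the submitters' processing notes reads were mapped to GRCh38 with HISAT2 2.0.5 and counted with featureCounts 1.5.0. The authors deposited raw counts per gene, which were used as deposited; the strand setting and the handling of multimapping reads are not given in the sources used here. Groups, replicate numbers and doses came from the labels, the replicate number was taken as the batch, and 0 sample columns were left unmapped. The test took genes that had 5 or more counts in total and were detected in 4 or more libraries, and was run with edgeR 4.0.16 (TMM, quasi-likelihood, R 4.3.3), with calls at an adjusted p up to 0.01. Each cell line was fitted alone with the batch, that is, the replicate number, as a block. The comparison of the lines used every library and no block. The MPS1i effects of the lines were compared in a fit of every library with a block for each line and batch. Libraries of the same line, genotype and batch deviated together from their group means (median r over genes of 0.36 for OE33 and of 0.258 for SK-GT-4, from 6 pairs each). The block also joins libraries of the same batch but different genotype. For these the median r was 0.279 for OE33 and 0.148 for SK-GT-4, where it ranged from -0.49 to 0.359. Replicates are numbered in the labels and are not stated to be separate clones. The p-values thus measure the spread between libraries, after the batch shift is removed where a block was fitted, and not a spread between clones.

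Levels are CPM with TMM factors over all 24 libraries; log2 ratios within a batch used a prior count of 2, and 95% intervals are the log2 change ± 1.96 SE. Among 24 pairs within groups 0 were identical (lowest chi-square over degrees of freedom 18.1). Alternatives were other filters, RLE size factors, DESeq2 1.42.0, other blocks, a threshold of 0.05 and the exclusion of replicates or libraries. List genes were also refitted without each of 3 doubted libraries, a choice made after the data were seen. The fit of each cell line alone was tested on simulated data for MPS1i against DMSO in Cas9, with the same spread in both lines. That spread was the 15% of OE33 and below the 34% of SK-GT-4, so the fit was not tested at the spread of SK-GT-4. The fits over all libraries and those of DESeq2 were not tested in this way. The 10 genes, the 7 pathway lists and the averages over backgrounds were chosen with earlier results of these data known. By rule, values are given for members called, otherwise for the 3 of largest change. For the lists, the rule was up to 4 called genes per list and comparison, those of largest change. It was not kept throughout, since some called list genes of larger change are left out and more genes are named in places. Values are also given for the 3 genes outside the 10 that were most like FOS, FOSL1, JUN and EGR1. Further members and ERCC1, HOOK2 and PLA2G6 were named after their values were seen. Values of 1 listed gene are not reported here.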

Additional observations from a re-analysis of the deposited data

Results flagged for a closer look

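IER3 was lower after MPS1i in all 3 batches of OE33 Cas9 (log2 change -0.18 ± 0.121) and higher in all 3 batches of SK-GT-4 Cas9 (0.58 ± 0.273). The difference between the lines' effects was log2 -0.735 ± 0.311 by edgeR's quasi-likelihood test, with an adjusted p of 1, so it did not pass the correction. It kept its sign under all 12 other settings, between -0.85 and -0.48. No other member moved one way in every batch of one background and the other way in every batch of another.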

How the results depend on the processing

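Of the counts of members called, 180 of 194 were alike under the other settings, that is, equal or, where neither was 0, of similar size. Most comparisons had 0 members called in the main fit, so much of this is agreement on 0. With the threshold at 0.05, 1 member was called in OE33 MPS1i cGAS KO against Cas9 (JUN) and 1 in the OE33 average (FOSB). With no filter beyond a count above 0, 1 was called in OE33 cGAS KO after MPS1i (FOSB, log2 1.34), 1 in OE33 MPS1i cGAS KO against Cas9 (JUN, log2 0.80) and 1 in the OE33 average (FOSB, log2 1.22); the cause was not tested. DESeq2 called 1 in the OE33 average (FOSB) and 1 in the average over all backgrounds (MAFF). How many of all genes were called under the other settings is not given, here or above. Whether the members called only there stand out from all genes therefore cannot be read from these calls. With a replicate block per genotype and batch, 1 was called in OE33 cGAS KO after MPS1i (FOSB, log2 1.36) and 2 in the OE33 average (FOSB and FOSL2); a block shared by both lines, or no replicate block, changed no count of members. Leaving out 1 replicate or 1 doubted library gave between 2 and 6 members called in the cGAS KO comparison of the lines, between 2 and 3 in the Cas9 one, between 0 and 1 in the OE33 average, and between 0 and 1 in cGAS KO against Cas9 in OE33 under either treatment, where JUN was the member called, also without replicate 2 (log2 0.88, adjusted p = 0.00997). Among single genes, 2 reversed, both in the OE33 difference of MPS1i effects and neither called: FOSB without replicate 1 (log2 0.17; between -0.5235 and 0.1726 over the leave-outs) and JUN without cGAS KO DMSO replicate 2 (between -0.5881 and 0.02818). FOS and FOSB are limited by depth, with as few as 12 and 8 counts in a library.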
